A study of Mus musculus with 16 samples.

Results

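Cells with the DNA content of a replicated genome (4N) were set against cells with that of an unreplicated one (2N). Both came from a mouse alveolar rhabdomyosarcoma (aRMS) tumor culture in which the Pax3:Foxo1a fusion had been targeted with siRNA. The 6 arrays compared were 3 of 4N knockdown cells (G2/M) and 3 of 2N knockdown cells (G1/G0), out of 16 arrays in all. Both sides came from the same 3 experiments, and 9146 genes detected in the 2N and 4N cells were described. All cells came from a tumor of a mouse labelled Myf6Cre, Pax3:Foxo1a, p53 conditional, in which a Cre driven by Myf6, a gene of the muscle lineage, switches on the fusion allele and deletes p53. Knockdown cells had been transfected with 10 nM siYFP and control cells with a control siRNA, both with 0.2% lipofectamine2000. The siYFP targets eYFP, which is encoded on the same transcript as the fusion. The remaining 10 arrays were 3 of 4N control cells, 3 of 2N control cells, and 2 each of 3N (S phase) knockdown and 3N control cells. All 6 groups thus share the tumor genotype, and the labels name no agent other than the siRNA that separates knockdown from control cells. The culture is a population from a single tumor model, sorted by DNA content, so the 4N gate holds cells in G2 and in mitosis together. The paper also describes hyperdiploid or multinuclear cells of 4N or more in cultures of this model. Their share of the 4N gate was not measured, and the sources used here do not give the number of tumors behind the arrays.

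Dividing cells order their transcription by phase. At the end of G1, E2F factors released from the retinoblastoma proteins turn on cyclin E and the genes that license and copy DNA. Once cells leave G1, the DREAM complex gives way to B-Myb and later to Foxm1. These act with the MuvB core through a promoter element called the cell cycle genes homology region (CHR). Toward G2 the kinases, motors and ubiquitin ligase parts needed for mitosis accumulate.

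Signals were background corrected, placed on the log2 scale and quantile normalized, and 4N minus 2N was tested with limma over all genes, with Benjamini-Hochberg adjustment and a threshold of 0.05. A gene past it is described below as higher, lower, risen or fallen. Levels are normalized log2 signals of 1 probe a gene and are not compared between genes. On the 6 arrays 12721 to 13060 of 25697 probes passed detection. Precision is limited by having 3 arrays a group. Arrays of a group correlated at 0.991 to 0.994 in 4N knockdown and at 0.990 to 0.992 in 2N knockdown cells, against 0.981 to 0.989 between the groups. Over the 12 arrays of 2N and 4N cells, knockdown and control cells separated along the leading principal component (45.2% of variance) and 4N and 2N cells along the next (21.4%). The Foxo1 probe, for which no position on the fusion transcript could be assigned, read 8.61, 8.64 and 9.04 in 4N knockdown and 8.44, 8.23 and 8.69 in 2N knockdown cells. In control cells it read 9.62, 9.38 and 9.40 at 4N and 9.39, 9.24 and 9.28 at 2N, so every knockdown array lay below every control array. Pax3 was detected on none of the 6 knockdown arrays.

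The muscle label was checked against its markers. Myog, Des and Chrna1 were detected on all 6 arrays and Myf5 on 3 of 3 4N and 1 of 3 2N arrays, whereas Myod1, Myf6, Pax7 and Mef2c were detected on none. Of the markers of other cell types, 9 of 11 immune, 8 of 9 endothelial, 4 of 5 erythroid and 4 of 5 adipocyte genes were undetected on all 6 arrays, among them Ptprc, Pecam1, Alas2 and Adipoq. The epithelial and neural markers Cdh1, Krt8, Krt18 and Syp were detected on all 6. Summed over the 8 genes with a probe, that list came to 15460 to 18441 signal units on the 4N and 12442 to 15336 on the 2N arrays, without overlap, and 0 of its 6 measured genes passed the test. Its part in the results was not tested.

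Promoters were read because many of the genes that were highest in 4N cells are known targets of the factors above. The 6 sequences shown run 5′ to 3′ on the gene's strand, from 250 bases before to 50 bases after the RefSeq start (GRCm38.p6). They were chosen after the matches were seen, for holding the letters searched, from 4 genes that were higher and 2 that were lower in 4N cells. Capitals mark TTTGAA (CHR), CCAAT (the box bound by NF-Y) and the E2F site, searched with one spelling as TTCCCGC, with another spelled as TTGGCGC, and with the last spelled as TTCGCGC, each on either strand. The first 4 are Ube2c (chr2:164769679-164769978, plus strand), Aurka (chr2:172370521-172370820, minus strand), Kif18b (chr11:102925075-102925374, minus strand) and Top2a (chr11:99024140-99024439, minus strand), and the last 2 are Mcm6 (chr1:128359656-128359955, minus strand) and Msh6 (chr17:87974800-87975099, plus strand).
Ube2c: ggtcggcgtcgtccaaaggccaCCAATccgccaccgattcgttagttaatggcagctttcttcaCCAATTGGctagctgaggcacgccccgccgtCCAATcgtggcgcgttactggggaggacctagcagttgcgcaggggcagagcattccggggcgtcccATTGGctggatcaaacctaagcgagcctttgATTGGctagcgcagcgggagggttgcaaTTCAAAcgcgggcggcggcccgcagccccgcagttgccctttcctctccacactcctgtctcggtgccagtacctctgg
Aurka: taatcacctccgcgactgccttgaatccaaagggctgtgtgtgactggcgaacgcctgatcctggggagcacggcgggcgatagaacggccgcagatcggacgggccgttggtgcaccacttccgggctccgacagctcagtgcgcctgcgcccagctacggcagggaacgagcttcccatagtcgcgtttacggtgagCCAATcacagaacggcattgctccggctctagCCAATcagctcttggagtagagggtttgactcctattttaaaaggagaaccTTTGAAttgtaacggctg
Kif18b: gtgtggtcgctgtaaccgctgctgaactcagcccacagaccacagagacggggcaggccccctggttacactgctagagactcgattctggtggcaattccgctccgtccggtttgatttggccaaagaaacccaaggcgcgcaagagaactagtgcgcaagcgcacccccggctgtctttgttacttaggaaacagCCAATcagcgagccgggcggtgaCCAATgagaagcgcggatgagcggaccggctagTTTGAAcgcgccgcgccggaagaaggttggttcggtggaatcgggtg
Top2a: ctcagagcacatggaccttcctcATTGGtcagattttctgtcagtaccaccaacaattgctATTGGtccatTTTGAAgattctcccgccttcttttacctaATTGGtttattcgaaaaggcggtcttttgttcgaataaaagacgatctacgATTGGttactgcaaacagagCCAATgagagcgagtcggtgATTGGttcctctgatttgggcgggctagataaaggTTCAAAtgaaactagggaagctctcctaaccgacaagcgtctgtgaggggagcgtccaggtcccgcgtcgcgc
Mcm6: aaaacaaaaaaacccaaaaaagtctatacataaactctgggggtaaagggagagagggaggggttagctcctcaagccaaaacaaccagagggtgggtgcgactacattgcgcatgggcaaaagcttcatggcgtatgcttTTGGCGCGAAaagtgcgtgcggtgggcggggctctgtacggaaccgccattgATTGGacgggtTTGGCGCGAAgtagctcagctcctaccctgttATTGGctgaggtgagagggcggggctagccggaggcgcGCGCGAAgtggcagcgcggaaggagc
Msh6: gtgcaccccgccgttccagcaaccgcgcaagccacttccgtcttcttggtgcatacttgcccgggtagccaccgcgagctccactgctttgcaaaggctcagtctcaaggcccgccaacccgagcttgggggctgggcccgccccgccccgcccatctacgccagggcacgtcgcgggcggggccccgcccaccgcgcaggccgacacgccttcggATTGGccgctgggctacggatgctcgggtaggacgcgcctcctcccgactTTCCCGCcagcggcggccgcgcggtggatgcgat

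Ube2c holds the CHR letters 29 bases before its start, after 6 CCAAT boxes, of which 2 overlap. Aurka and Kif18b hold 1 CHR match and 2 CCAAT boxes each, and Top2a 2 CHR matches and 6 CCAAT boxes. Mcm6 holds 5 E2F matches, among which 2 pairs overlap, with 2 CCAAT boxes and 0 CHR matches, and Msh6 holds 1 E2F match. The promoters of Nusap1 and Ung hold 0 matches to any of these letters in the window, which says nothing of the factors themselves. RefSeq promoters were matched to 266 of the 323 genes higher in 4N knockdown cells, 138 of the 165 lower and 7491 of all 9146 tested. CHR letters stood in 35.3% of the higher genes, 9.42% of the lower and 14.0% of all, counting a gene where any of its promoters held them. Among the 20 matched genes that were higher by at least 4-fold, 14 (70.0%) held them. CCAAT letters stood in 56.4% of the higher genes, 40 of the 138 lower and 43.5% of all, and both elements together in 22.9% of the higher, 2.17% of the lower and 5.83% of all. E2F letters stood in 23.7% of the higher genes, 29 of the 138 lower and 16.8% of all, but in 58.5% of the 65 matched members of the G1/S and S phase lists. Short motifs recur by chance and these shares are descriptions, as are the bins of distance, which were added after the shares were seen. In the plot of CHR matches by distance, the 327 promoters of higher genes had 4.59 to 7.03 matches per 100 promoters in the 4 bins from 50 bases before to 50 after the start and 0.612 to 3.06 in the other bins. Promoters of all tested genes had 0.693 to 1.50 in every bin.

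**Figure D1:**
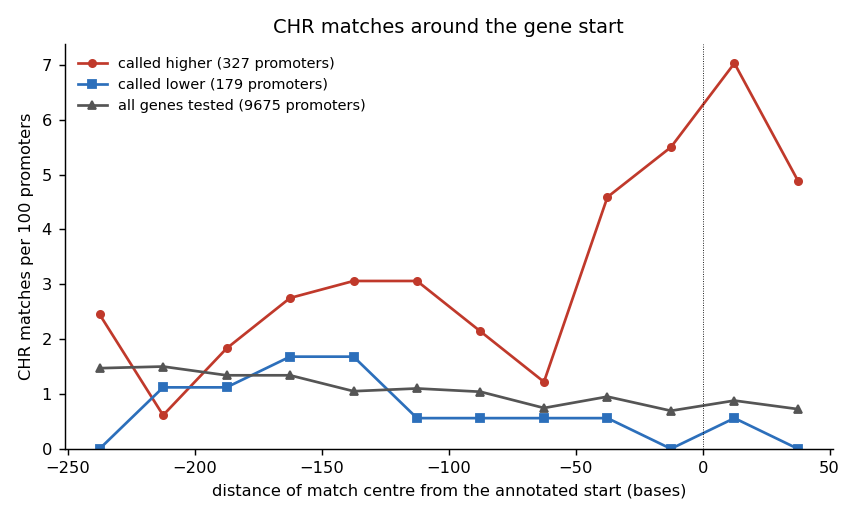
CHR matches (TTTGAA on either strand) per 100 RefSeq promoters in bins of 25 bases, against distance from the annotated start, for genes called higher or lower in 4N knockdown cells and for all genes tested. The higher genes reach 7.03 just after the start, where all genes stand at 0.879, and the lower genes stay at or below 1.68.

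In 4N knockdown cells 323 genes were higher and 165 lower than in 2N knockdown cells. This is 488 of 9146, or 5.34% called (3.53% higher, 1.80% lower), and 1706 genes had an unadjusted p under 0.05. A blocked fit, which pairs the arrays by experiment, found 448 higher and 363 lower genes, holding 322 and 165 of the first calls. Median scaling in place of quantile normalization gave 314 higher and 84 lower, so that 78.9% of calls were higher against 66.2%. The rises were larger than the falls, since 110 genes rose and 12 fell by at least 2-fold, and 24 rose and 1 fell by at least 4-fold. The median log2 fold change was 0.72 over the higher genes and -0.58 over the lower, beside -0.03 over all tested. Every called gene had the same sign in 3 of 3 experiments, which was nearly set in advance, since the calls were made on these same arrays. The 3 arrays of each side did not overlap for 1050 genes with 4N above 2N (11.5% of those tested) and 1257 with 4N below (13.7%). RNA was hybridised in bulk, so more cells expressing a gene and more RNA of it per cell cannot be told apart.

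**Figure D2:**
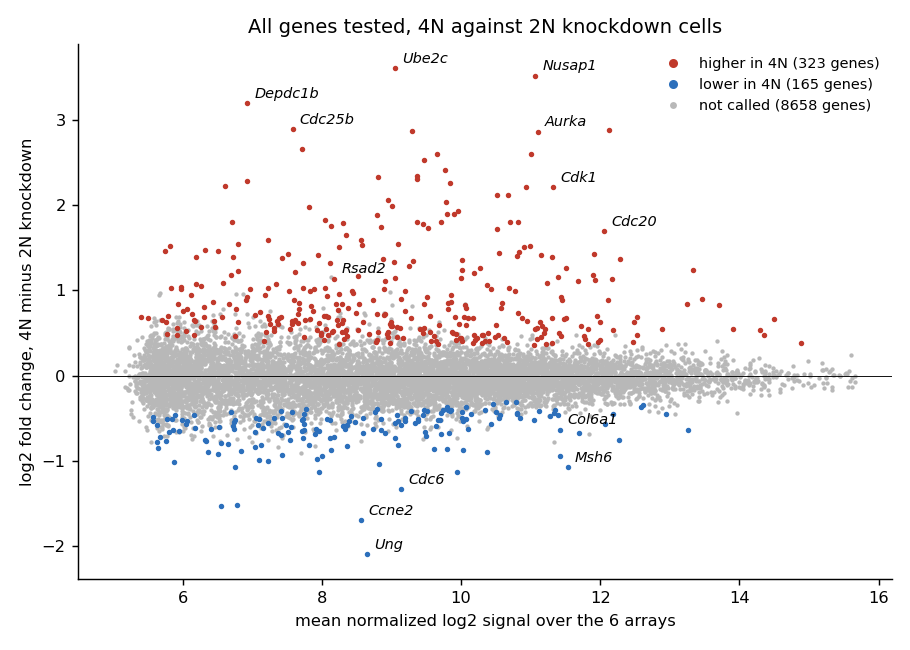
Log2 fold change (4N minus 2N knockdown cells) of all 9146 genes tested against their mean normalized log2 signal over the 6 arrays, with 323 genes called higher and 165 called lower. The called genes reach 3.60 above 0 and only -2.10 below it.

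Of the 15 largest rises, 14 were on the lists of mitosis genes, and Kpna2 was on that of the nuclear envelope and transport. Ube2c, the E2 enzyme that works with the anaphase-promoting complex, read 10.28, 10.93 and 11.33 in 4N knockdown cells and 6.71, 7.10 and 7.93 in 2N knockdown cells (experiments 1 to 3). It was 12.1-fold higher (log2 fold change 3.60, SE 0.39, adjusted p = 8.68e-05). Nusap1, which bundles spindle microtubules, read 12.80, 12.81 and 12.84 at 4N and 9.15, 9.15 and 9.61 at 2N. All 3 4N arrays of both genes lay far above the 2N arrays, with more spread between experiments for Ube2c than for Nusap1 (11.4-fold, SE 0.17 on the log2 scale, adjusted p = 8.50e-08). Dimmer Nusap1 probes had smaller log2 fold changes of 2.92 and 1.49, against 3.51, and also passed over all probes. Depdc1b, a DEP domain protein, read 8.50, 8.62 and 8.45 at 4N and was detected on none of the 2N arrays, which makes it at least 7.22-fold higher (adjusted p = 2.79e-09). That bound sets the 2N arrays at their detection limit. Prc1, which crosslinks the antiparallel microtubules of the spindle midzone, was 7.32-fold higher. Pif1, a DNA helicase that the list of midzone and cytokinesis genes also counts, was 7.30-fold higher. Arhgef39 was 6.32-fold higher, the kinesin-8 motors Kif18b and Kif18a 6.04- and 5.31-fold, topoisomerase II Top2a 6.03-fold and the nuclear import receptor Kpna2 5.78-fold. Aspm of the spindle poles (5.06-fold), Ckap2l (5.02-fold) and the bipolar spindle motor Kif11 (4.96-fold) completed the set together with Cdc25b and Aurka, described next.

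**Figure D3:**
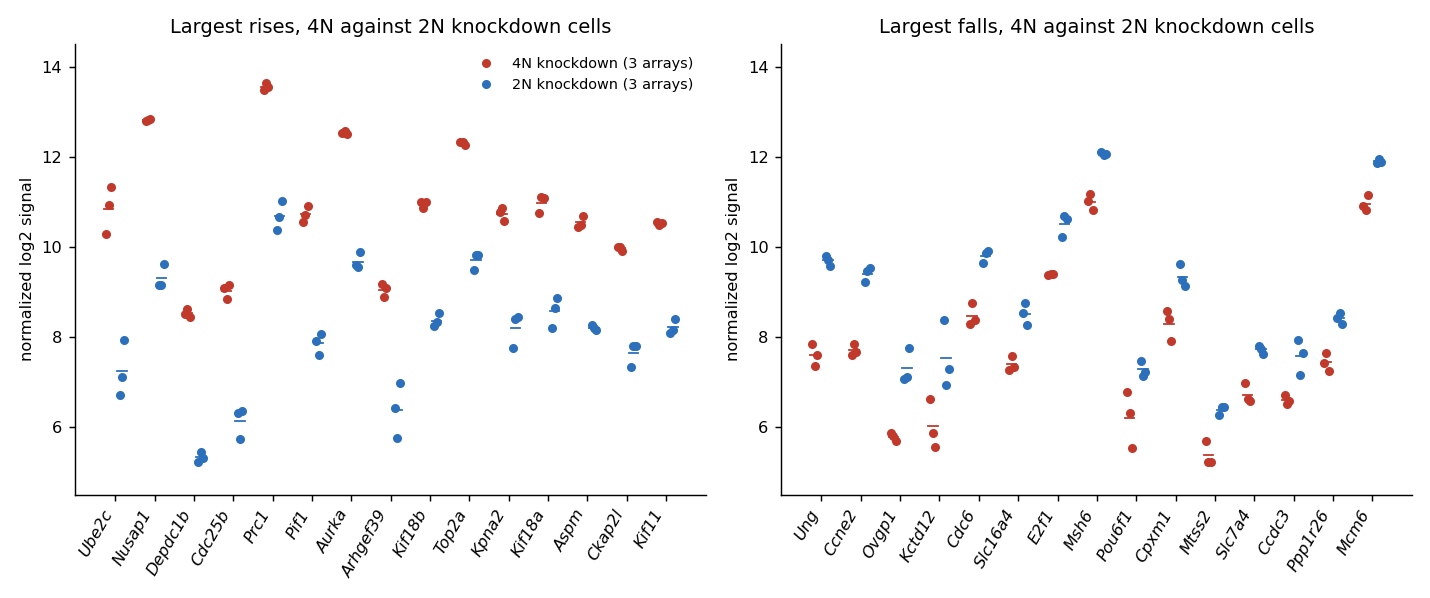
Normalized log2 signal of the 15 largest rises and the 15 largest falls on each of the 3 arrays of 4N (left of each pair) and 2N knockdown cells, with short lines for the means. For all 30 genes the 3 arrays of 4N cells lie apart from the 3 of 2N cells. The genes were chosen from these same arrays for large changes of the same sign in 3 experiments, so this separation was nearly set by the choice. Over all genes tested, 11.5% lay apart with 4N above and 13.7% with 4N below.

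Of 20 measured mitotic entry genes, 14 were higher, 0 lower and 6 not called, with a median log2 fold change of 1.41. Cdc25b, the phosphatase that activates Cdk1, read 9.07, 8.83 and 9.16 in 4N knockdown cells and 6.30, 5.74 and 6.36 in 2N knockdown cells, 7.40-fold higher (SE 0.16 on the log2 scale, adjusted p = 3.04e-07). Aurka, the Aurora A kinase of the spindle poles, read 12.52, 12.56 and 12.51 at 4N and 9.59, 9.54 and 9.88 at 2N (7.25-fold, adjusted p = 5.90e-08). Plk1, the Polo-like kinase that drives entry, read 12.06, 12.04 and 12.003 at 4N and 9.88, 9.70 and 9.88 at 2N. The 4N arrays of these kinases differed among themselves by less than the 2N arrays. Plk1 was 4.63-fold higher (SE 0.09, adjusted p = 5.40e-08), as was Cdk1, the kinase that these proteins converge on (4.63-fold, SE 0.11). A dimmer Cdk1 probe had a log2 fold change of 0.97, against 2.21. Ccnf, cyclin F, was 4.87-fold higher. Among genes picked after their values were seen, the transcription factor Foxm1 was higher by 1.14 on the log2 scale (SE 0.11) and Ccna2, cyclin A2, by 1.75 (SE 0.35, adjusted p = 0.0126, and 0.0632 without 4N knockdown replicate 3). For Mybl2, which encodes B-Myb, the log2 fold change was -0.23 (SE 0.18, adjusted p = 0.564). Wee1, the kinase that holds Cdk1 inactive, showed a log2 change of 0.72 (SE 0.32, adjusted p = 0.248, but 0.0242 in the blocked fit). Ccnb1 and Aurkb were not analysed here.

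Of 18 measured genes of the chromosomal passenger complex and sister cohesion, 9 were higher, 0 lower and 9 not called. Those not called included the cohesin subunits Smc3 (log2 fold change -0.03), Smc1a (0.16) and Rad21 (0.51). Cdca2, which recruits a phosphatase to chromatin, was 4.79-fold higher, and separase (Espl1), the protease that cuts cohesin, 3.97-fold. Shugoshin (Sgo1), which protects centromeric cohesin, was 3.71-fold higher and the passenger scaffold Incenp 3.70-fold. Birc5, the passenger subunit survivin, read 11.62, 11.69 and 11.64 in 4N knockdown cells and 10.26, 10.13 and 10.06 in 2N knockdown cells, 2.83-fold higher (SE 0.09 on the log2 scale, adjusted p = 5.10e-07). Of 31 kinetochore and spindle checkpoint genes, 24 were higher and 0 lower, with a median of 1.03. Spc25 of the Ndc80 complex was 4.34-fold higher, the checkpoint kinase Ttk 3.47-fold, Spdl1, which brings dynein to kinetochores, 3.42-fold, and Ska3 3.35-fold.

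Of 24 spindle assembly and motor genes 15 were higher, of 15 midzone and cytokinesis genes 11, and of 9 condensation genes 5, with 0 lower on each list and medians of 1.19, 1.80 and 1.02. Hmmr, a spindle protein picked after its value was seen, was 2.75-fold higher. The condensin subunits Ncaph and Ncapd2 were 2.64- and 2.17-fold higher, and the chromatin protein Hmgb2 2.27-fold. Of 19 centrosome genes 6 were higher, led by the centriole duplication kinase Plk4 (2.72-fold) and the cartwheel protein Sass6 (2.50-fold). Cdk5rap2 (1.50-fold, adjusted p = 0.0111) and Cenpj (1.64-fold, adjusted p = 0.0316) were also called. The adjusted p of Cdk5rap2 reached 0.0572 without 4N knockdown replicate 2 and 0.0528 without 2N knockdown replicate 3. That of Cenpj reached 0.118 without 2N knockdown replicate 1, 0.0659 without 2N knockdown replicate 2, 0.100 without 4N knockdown replicate 2 and 0.113 without 4N knockdown replicate 3.

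Of 16 measured genes of the anaphase-promoting complex 3 were higher and 0 lower, and these were the conjugating enzyme Ube2c and the activators Cdc20 (3.23-fold, SE 0.08 on the log2 scale) and Fzr1 (2.68-fold, SE 0.10). The remaining 13, among them core subunits and the second conjugating enzyme Ube2s (log2 fold change 0.41, adjusted p = 0.256), did not pass the test. Of 27 genes of the nuclear envelope and transport 13 were higher and 0 lower, most by less than 2-fold. Nup37 was 2.04-fold higher, Rangap1, which activates the Ran GTPase, 1.79-fold, and the pore membrane protein Ndc1 was higher by 0.68 on the log2 scale. Taking the 8 lists from mitotic entry to the anaphase-promoting complex as one, without the nuclear envelope list, 87 of 151 measured genes were higher, 0 lower and 64 not called, with a median of 0.92.

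**Figure D4:**
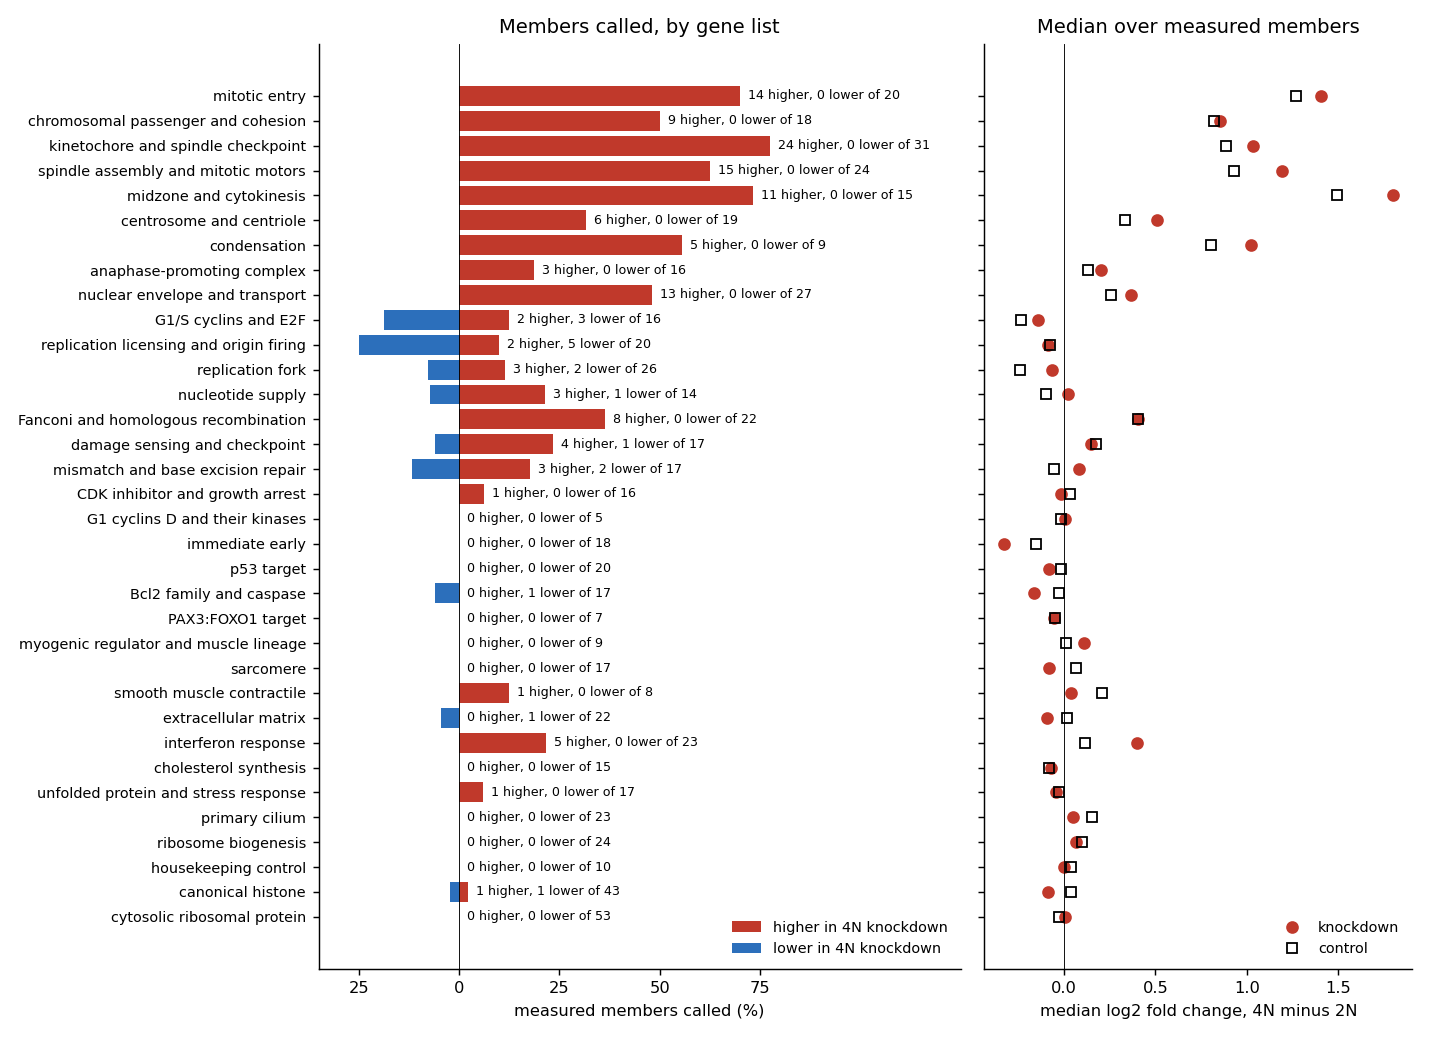
Left, the share of each list's measured members (%) called higher (right of 0) or lower (left of 0) in 4N knockdown cells, with counts beside each bar. Right, the median log2 fold change, 4N minus 2N, over the same members in knockdown and in control cells, with kinetochore genes at 24 higher of 31 and ribosomal proteins at 0 of 53.

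Of 76 measured genes of the G1/S transition and DNA replication, 10 were higher and 11 lower, with a median of -0.09. In control cells 5 of the same genes were higher and 23 lower at 4N, with a median of -0.20, though no gene was called in the test of the difference between treatments. In knockdown cells the 10 higher calls came to 2 without 2N knockdown replicate 1 or without 4N knockdown replicate 2, 4 without 4N knockdown replicate 3, 5 without 2N knockdown replicate 2, and 6 without 4N knockdown replicate 1 or without 2N knockdown replicate 3. With the 6 knockdown arrays alone in the fit they were 4, and with these also normalized alone 5, while the lower calls were 10 to 11 over the fits without 1 array. Among 16 G1/S cyclins and E2F genes, cyclins E1 and E2 and E2f1 were lower. Ccne2 read 7.60, 7.85 and 7.67 in 4N knockdown cells and 9.23, 9.47 and 9.52 in 2N knockdown cells. This was a log2 change of -1.70 (SE 0.11, adjusted p = 6.19e-07), without overlap of the arrays. E2f1, the activator of the G1/S program, read 9.38, 9.39 and 9.39 at 4N and 10.22, 10.69 and 10.62 at 2N, and fell by 1.12 (SE 0.13, adjusted p = 0.000136). Ccne1 fell by 0.81 (SE 0.13). In the other direction the retinoblastoma relative Rbl1 was 2.21-fold higher (SE 0.08, adjusted p = 1.55e-06), with E2f5 (log2 fold change 0.44) the second of 2 higher genes on this list.

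The next list holds licensing factors, which load the helicase in G1, together with origin firing genes. Of its 20 measured genes 5 were lower, 2 higher and 13 not called, with a median of -0.09. Cdc6 read 8.28, 8.75 and 8.38 in 4N knockdown cells and 9.64, 9.87 and 9.91 in 2N knockdown cells, a log2 change of -1.33 (SE 0.13, adjusted p = 4.59e-05). A dimmer Cdc6 probe had -0.34 (SE 0.20, adjusted p = 0.426 over all probes). The helicase subunit Mcm6 read 10.90, 10.81 and 11.14 at 4N and 11.86, 11.94 and 11.88 at 2N, and fell by 0.94 (SE 0.13). No 4N array of either gene reached a 2N array. Cdt1, the partner of Cdc6 in loading, fell by 0.67 (SE 0.10), and Mcm2 and Mcm4 were the other 2 lower. Dbf4, which activates the kinase that fires origins, was 2.22-fold higher (SE 0.09, adjusted p = 3.56e-06).

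At the fork, Chaf1b of the chromatin assembly factor fell by 0.90 (SE 0.12, adjusted p = 0.000464), and Wdhd1 fell by 0.53 (SE 0.14, adjusted p = 0.0493). These were the 2 lower of 26, or 5 in the blocked fit, and 3 were higher. The fork clamp Pcna, picked after its value was seen, read 10.65, 10.75 and 11.43 in 4N knockdown cells and 11.29, 11.78 and 12.09 in 2N knockdown cells, so the arrays overlapped (-0.78, SE 0.30, adjusted p = 0.187, but 0.0177 in the blocked fit). The 3 higher were Rfc4, the clamp loader subunit Rfc5 (0.55, adjusted p = 0.0368) and the polymerase subunit Pole (0.51, adjusted p = 0.0151). Of 14 nucleotide supply genes, 3 were higher, namely the thymidine kinase Tk1 (0.64, adjusted p = 0.0189), the thymidylate synthase Tyms (0.50, adjusted p = 0.0221) and the reductase subunit Rrm1 (0.43, adjusted p = 0.0310), and 1 was lower, the dUTPase Dut, which fell by 0.66 (SE 0.12). The calls of Wdhd1, Rfc5, Pole, Tk1, Tyms and Rrm1 were each lost in 3 to 5 of the 6 fits that leave out 1 knockdown array, with adjusted p up to 0.175 (Wdhd1, without 4N knockdown replicate 2). Dimmer Tyms probes had 0.55, 0.46, 0.23 and -0.10, of which only the first passed over all probes. With the mean of a gene's detected probes, Tyms lost its call (0.33, adjusted p = 0.113).

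Of 56 measured DNA repair genes 15 were higher, 3 lower and 38 not called. Of 22 Fanconi and homologous recombination genes, 8 were higher and 0 lower, with a median of 0.41. Ube2t, the conjugating enzyme of the Fanconi core, read 8.76, 8.87 and 9.23 in 4N knockdown cells and 7.01, 7.12 and 7.27 in 2N knockdown cells, 3.54-fold higher (SE 0.19 on the log2 scale, adjusted p = 6.97e-05). Its substrates Fancd2 and Fanci were 2.49- and 2.26-fold higher, and the helicase Blm 1.93-fold. Of 17 damage sensing genes 4 were higher and 1 lower. H2ax, the histone phosphorylated at DNA breaks, read 11.55, 11.60 and 11.53 at 4N and 10.28, 10.01 and 10.05 at 2N, and was 2.72-fold higher (SE 0.11, adjusted p = 3.80e-06). The checkpoint kinase Chek2 was 2.35-fold higher by its brightest probe (adjusted p = 0.00170), and its other 2 probes had 0.45 and 0.47 on the log2 scale without passing the test. In the fits restricted to the 6 knockdown arrays another probe stood for Chek2, with 0.47 (adjusted p = 0.176). Rad50 and Rad1 were higher by under 1.5-fold. The ubiquitin ligase Rnf168 fell by 0.46 (adjusted p = 0.0212). Rad1 lost its call without any 1 of 5 arrays and Rnf168 without any 1 of 4.

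The largest fall of all was in base excision repair. Ung, the glycosylase that removes uracil from DNA, read 7.84, 7.36 and 7.60 in 4N knockdown cells and 9.80, 9.71 and 9.58 in 2N knockdown cells, 4.28-fold lower at 4N (log2 fold change -2.10, SE 0.15, adjusted p = 1.84e-06). A second Ung probe had -1.57 (SE 0.13) and the third 0.14 (SE 0.25, adjusted p = 0.850 over all probes). Msh6, of the mismatch recognition complex, read 11.01, 11.16 and 10.81 at 4N and 12.11, 12.03 and 12.06 at 2N, and fell by 1.07 (SE 0.11, adjusted p = 6.52e-05). Neither gene's arrays overlapped. The other called members of this list of 17 were higher, and they were the glycosylase Mutyh (0.80, adjusted p = 0.0205), the mismatch protein Mlh3 (0.61, adjusted p = 0.0118) and Xrcc1. Mutyh and Mlh3 lost their calls without any 1 of 4 and any 1 of 3 arrays, with adjusted p of at most 0.0874 and 0.0588.

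Genes on no list made up 189 of the higher and 148 of the lower calls, out of 8484 tested, against 112 higher and 14 lower of 283 on the cell cycle and repair lists. Efcab11, an EF-hand protein, read 7.52, 7.71 and 7.91 in 4N knockdown cells and 5.77, 5.63 and 5.09 in 2N knockdown cells, 4.66-fold higher (SE 0.19 on the log2 scale, adjusted p = 1.21e-05). A dimmer Efcab11 probe had a log2 fold change of 1.57, against 2.22. Pimreg was 3.95-fold higher, Prr11 3.49-fold, the scaffold Iqgap3 3.13-fold, Ccdc18 2.92-fold, Ccdc77 2.91-fold, Btg4 2.77-fold and Miip 2.66-fold. Mxd3, a partner of Max, and Psrc1, a spindle protein, were detected on none of the 2N arrays and were at least 1.88- and 1.75-fold higher. In all, 12 of the higher genes were undetected on every 2N array and 13 of the lower on every 4N array.

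The largest falls among genes on no list were of varied function. Ovgp1, an oviductal glycoprotein, read 5.86, 5.79 and 5.70 in 4N knockdown cells and 7.07, 7.11 and 7.75 in 2N knockdown cells, a log2 change of -1.53 (SE 0.24, adjusted p = 0.00205). The monocarboxylate transporter family member Slc16a4 fell by 1.12 (SE 0.13) and the amino acid transporter family member Slc7a4 by 1.00 (SE 0.13). Ppp1r26 fell by 0.98 (SE 0.18) and the RNA-binding translational repressor Nanos1 by 0.94 (SE 0.12). Mtss2 was detected on none of the 4N arrays and was at least 1.58-fold lower. Kctd12, which modulates GABA-B receptors, read 6.63, 5.86 and 5.57 at 4N and 8.38, 6.93 and 7.29 at 2N, and fell by 1.51 (SE 0.37, adjusted p = 0.0345). The arrays of Kctd12 barely kept apart. Its adjusted p was 0.108 without 2N knockdown replicate 1, 0.113 without 4N knockdown replicate 2, 0.0665 without 2N knockdown replicate 3 and 0.136 without 4N knockdown replicate 3. The POU factor Pou6f1 (-1.07, adjusted p = 0.0444), the carboxypeptidase-like Cpxm1 (-1.04, adjusted p = 0.0191) and Ccdc3 (-0.98, adjusted p = 0.0132) lost their calls in 5, 2 and 4 of the 6 fits that leave out 1 array, with adjusted p of at most 0.148, 0.0812 and 0.0574.

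Interferon response genes stood on the higher side, with 5 of 23 higher and 0 lower and a median of 0.40, or 9 higher in the blocked fit. Rsad2, the antiviral protein viperin, read 8.85, 8.86 and 8.52 in 4N knockdown cells and 7.51, 7.83 and 7.48 in 2N knockdown cells, 2.20-fold higher (SE 0.14 on the log2 scale, adjusted p = 0.000212). In control cells it read 6.08, 6.28 and 6.41 at 4N and 5.62, 5.73 and 5.85 at 2N. Every 4N array was above every 2N array of its treatment, and every knockdown array above every control array. The chemokine Cxcl10 was 1.71-fold higher at 4N in knockdown cells, the immunoproteasome subunit Psmb8 1.69-fold, the guanylate-binding protein Gbp3 1.62-fold, and Oasl2 was the fifth.

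On most remaining lists few or no genes passed. Over all 9146 genes tested 5.34% were called (3.53% higher, 1.80% lower), so 0 or 1 call on a short list is near that share. The CDK4 inhibitor Cdkn2d (p19Ink4d) was the 1 higher of 16 CDK inhibitor and growth arrest genes, reading 9.39, 9.21 and 9.45 in 4N knockdown cells and 8.09, 7.53 and 7.66 in 2N knockdown cells (3.01-fold, SE 0.17 on the log2 scale, adjusted p = 7.28e-05). In the blocked fit 3 of that list were higher. The smooth muscle protein Smtn was 1.90-fold higher (adjusted p = 0.000492), the 1 called of 8. The collagen Col6a1 read 11.13, 11.18 and 10.998 at 4N and 11.75, 11.72 and 11.74 at 2N and fell by 0.63 (SE 0.11, adjusted p = 0.00534), the 1 called of 22 matrix genes, or 1 of 4 with the block. Smaller changes were called for the initiator caspase Casp9 (-0.53), the stress factor Atf4 (0.48) and the histones H3c8 (0.40) and H4c8 (-0.47), each of which lost its call in 4 or 5 of the 6 fits that leave out 1 array. Called members were 0 of 18 immediate early genes (median -0.33, with 17 of 18 below 0), 0 of 20 p53 targets, 0 of 5 D cyclins and their kinases, 0 of 17 sarcomere genes, 0 of 9 myogenic genes, 0 of 15 cholesterol synthesis genes, 0 of 23 cilium genes, 0 of 24 ribosome biogenesis genes, 0 of 10 housekeeping genes and 0 of 53 ribosomal protein genes. On the PAX3:FOXO1 target list 0 of 7 measured genes were called, or 2 with the block. These 7 include Foxo1, which is part of the fusion and is not counted here as a known target. Log2 changes were 0.31 for Foxo1 itself (SE 0.14, adjusted p = 0.271), -0.25 for Igf1r (adjusted p = 0.600), 0.39 for Myf5 (SE 0.44, adjusted p = 0.726) and -0.08 for Gapdh (adjusted p = 0.687). Pdgfra had -0.42 (SE 0.17, adjusted p = 0.214, and 0.0331 with the block).

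The order of the phases was read in the 3N knockdown arrays of experiments 1 and 2, which did not enter the test. Of the 323 higher genes, 182 had a 3N mean between the 2N and the 4N mean, 133 at or above the 4N mean and 8 at or below the 2N mean. Cdc20 read 11.24, 11.14 and 11.25 at 2N, 12.06 and 11.79 at 3N and 12.87, 12.92 and 12.91 at 4N, so its 3N arrays lay between. Top2a read 9.50, 9.83 and 9.81 at 2N, 12.36 and 12.31 at 3N and 12.32, 12.34 and 12.26 at 4N, and was as high in S phase as in G2/M. Psrc1 read 4.98, 5.05 and 5.02 at 2N, 5.29 and 5.54 at 3N and 6.64, 6.55 and 6.25 at 4N, with 3N closer to 2N. Of the 165 lower genes 118 lay between, 35 at or below the 4N mean and 12 at or above the 2N mean. Ung was already low at 3N (7.99 and 7.80), while Mcm6 (11.82 and 11.79) and Chaf1b (10.77 and 10.91) were near their 2N level. With 2 arrays at 3N these are values without a test.

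Control cells gave the same direction for most of these genes. In them 271 genes were higher and 168 lower at 4N than at 2N (2.96% and 1.84%, 4.80% called together). Of the 323 genes higher in knockdown cells 215 were also called higher in control cells and 319 had a positive log2 fold change there, and of the 165 lower ones 73 were called and 156 were negative. No gene was called in opposite directions. The 108 higher and 92 lower genes called in knockdown cells alone are not thereby shown to differ. The difference of the 4N minus 2N effect between knockdown and control cells was tested itself, and limma called 0 of 9146 genes, with 293 at an unadjusted p under 0.05 and a lowest adjusted p of 0.722. Its median SE was 0.19 on the log2 scale, against 0.14 for the effect in knockdown cells. The smallest p was that of Strip2, which had a log2 fold change of 0.48 in knockdown and -0.41 in control cells (difference 0.89, SE 0.16), and was detected on 1 of 3 2N knockdown and 2 of 3 4N control arrays. Ptprv was detected on none of the 4N knockdown arrays and was at least 1.27-fold lower there than in 2N knockdown cells, so no size is given for its difference (adjusted p = 0.722). Mex3c had 0.17 in knockdown cells and was detected on none of the 4N control arrays. Htr5b had -0.03 in knockdown and -0.77 in control cells, and Pmpca 0.45 in knockdown and -0.33 in control cells. Ung, with -2.10 in knockdown and -2.84 in control cells, had a difference of 0.74 (SE 0.21) and also did not pass.

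**Figure D5:**
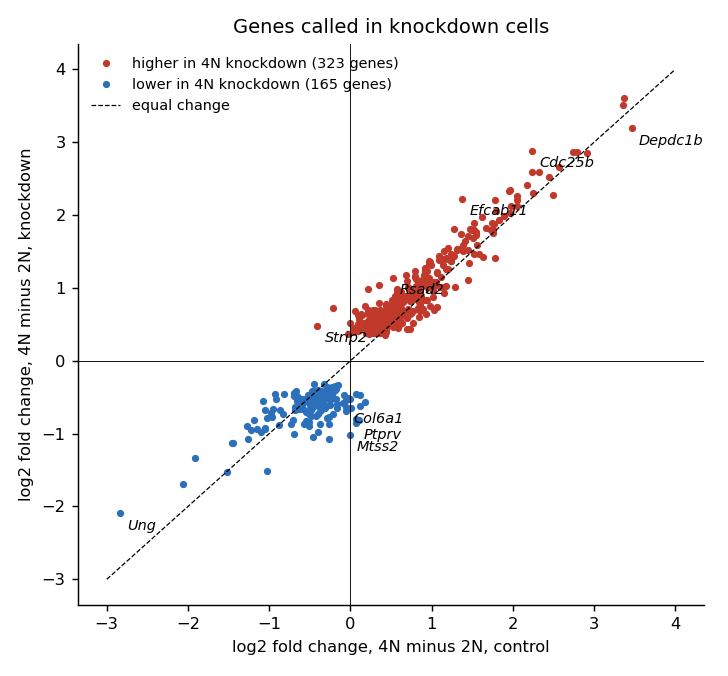
Log2 fold change, 4N minus 2N, in knockdown cells against that in control cells for the 488 genes called in knockdown cells (323 higher, 165 lower), with a dashed line of equal change. Choosing genes by their knockdown value places them away from 0 on that axis, and Col6a1 lies near 0 in control cells (-0.06).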

How the data were processed

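RNA from each sorted sample was amplified (Ambion MessageAmp Premier) and hybridised to an Illumina MouseRef-8 v2 BeadChip. The authors deposited GenomeStudio mean probe signals, an intensity on a linear scale with no normalization, together with a detection fraction, which is high for bright probes and is 1 minus the detection p. The deposited processed values are also an intensity, and equal quantile normalization of the signals over 16 arrays to within 0.0327 on the log2 scale. A genome build for the probes was not given in the sources used here.

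Signals were corrected with limma's normexp model from the detection p (offset 16), taken to log2 and quantile normalized over 16 arrays (limma 3.58.1, R 4.3.3). Of 25697 probes, 23978 had 1 gene, 1719 none and 0 several, with symbols updated through the RefSeq gene table. Of them 13615 were kept, detected (p under 0.05) on 3 or more of the 12 2N and 4N arrays, and the brightest probe stood for its gene (9146 genes). Each of 4 groups had 1 mean in limma (8 residual and 3.95 prior degrees of freedom). SE is the standard error of a log2 fold change in that fit. A bound sets arrays of the undetected group at the higher of their own value and their lowest detected signal.

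The labels number a shared experiment, and the blocked fit pairs the arrays on that label. Deviations of same-experiment 4N and 2N knockdown arrays from their group means correlated at 0.370 to 0.431, against -0.285 to -0.130 across experiments. Deviations within a group cancel out, so the negative values follow in part from the positive ones. Same-experiment knockdown and control arrays ranged from 0.0227 (4N knockdown with 2N control, experiment 2) to 0.419 (2N knockdown with 4N control, experiment 1). The main fit sets each change against the spread among arrays of a group, pooled over the 4 groups, and leaves the pairing out. The sources used here do not say whether experiments used separate cultures or tumors. Whether that spread covers differences between tumors is therefore not known.

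Genes, gene lists (39) and motifs were chosen with earlier results of these data known. The named genes are the 15 largest rises and falls past the threshold, with the same sign in 3 experiments and each array of the higher side detected, the 10 largest each way on no list, up to 4 per list, genes the paper names, and the 5 with the smallest p of the difference between treatments. Foxm1, Mybl2, Ccna2, Pcna and Hmmr were added after their values were seen, as were further list members given to complete a count. In the comparison, 12 other settings and 6 fits leaving out 1 array were run, and 1 of the 12 (block with the 6 knockdown arrays) was added after seeing the data. The test was tried on simulated arrays with independent noise, which lack the correlation between arrays of an experiment. It recovered 29 of 80 genes changed by 0.5 on the log2 scale, 70 of 80 changed by 1 and 39 of 40 changed by 2. Of 148 calls there, 10 were false. For the difference between treatments 6, 55 and 38 of these genes were recovered, so simulated differences of 0.5 were mostly missed.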

Additional observations from a re-analysis of the deposited data

How the results depend on the processing

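With the experiment as a block, 811 genes were called in knockdown cells (363 lower) against 488 (165 lower), and 772 in control cells against 439. Median scaling gave 84 lower genes. Fitting only the 6 knockdown arrays gave 4 higher genes on the G1/S and S phase lists against 10, and normalizing them alone 5. The block with the 6 knockdown arrays, chosen after seeing the data, gave 839 calls (382 lower) and 2 lower genes on the mitosis lists, Ccp110 (-0.39) and Ninl (-0.46). Leaving out 1 knockdown array at a time gave 290 to 399 calls, of them 219 to 263 higher and 68 to 136 lower, 77 to 80 higher mitosis genes, 2 to 6 higher and 10 to 11 lower genes on the G1/S and S phase lists. The count of calls moved by over 1.5 times without any 1 of 5 arrays, to 306 without 2N knockdown replicate 1, 310 without 4N knockdown replicate 1, 309 without 4N knockdown replicate 2, 290 without 2N knockdown replicate 3 and 295 without 4N knockdown replicate 3. In control cells it was 285 to 346, lowest without 4N control replicate 3. The cause of these shifts was not tested. The difference between treatments had 0 calls under each setting that held control arrays, and could not be tested in the fits to the 6 knockdown arrays alone. The mitosis lists had 83 to 97 members called higher under the 12 other settings. Htr5b, not called, ran between -0.127 and 0.0666 over the fits without 1 array and changed sign to 0.0666 without 2N knockdown replicate 1 and to 0.00354 without 4N knockdown replicate 3. Over the named genes and the 12 other settings, 1311 values kept direction and call, 49 lost the call and 8 gained it. Of 103 named genes that passed, 81 passed in all 6 fits without 1 array and 22 lost the call in at least 1. Dim probes lie near the detection limit, where the offset compresses log2 changes.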
